A study of Arabidopsis thaliana with 4 samples.

Results

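The genes described here encode the photoreceptors of Arabidopsis thaliana, the proteins with which the plant reads red, far-red, blue and UV-B light. They are the phytochrome genes PHYA to PHYE, the cryptochrome genes CRY1 and CRY2, the phototropin genes PHOT1 and PHOT2, and UVR8. They were taken by locus code as a family of known function, and are 10 of the 32627 genes on the array. Together they are covered by 12 of its 37118 transcript models. The levels came from whole seedlings of the Col-0 background on 4 one-colour arrays. The first genotype was a late-flowering line carrying the transgene 35S::JMJ30-HA (2 arrays), in which a viral promoter that is active in most plant cells drives JMJ30, a histone demethylase gene, fused to an HA tag. The other was the normally flowering wild type (2 arrays). Both were untreated and grew on soil at 22 °C with 16 h of light and 8 h of dark, and seedlings were taken 13 days after germination. How many independent transgenic lines were used, and at what hour seedlings were harvested, is not stated in the labels.

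Phytochromes carry a linear tetrapyrrole and switch between a red-absorbing form and an active form that absorbs far-red light. The active form enters the nucleus, where it acts against the growth-promoting PIF transcription factors. Cryptochromes and phototropins sense blue light through flavins, cryptochromes mainly in the nucleus and phototropins as kinases at the plasma membrane. UVR8 senses UV-B through its own tryptophans and then binds COP1, a ubiquitin ligase subunit that phytochromes and cryptochromes also restrain. Several of these receptors set flowering time, phyB delaying it and cry2 promoting it in long days.

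Values are normalized intensities on a linear scale, and an intensity cannot be compared between genes because each probe set has its own brightness. Median intensity per array was 25.6 to 26.6. The distribution of gene means had a low and a high mode with a valley between them at 14.3, and 17759 to 17848 genes per array lay above it. Genes under the valley are called near background. JMJ30 (AT3G20810), the gene under the 35S promoter, read 1054 and 721 in the 35S::JMJ30-HA line, against 705 and 567 in the wild type, a difference that did not pass the test (limma, adjusted p = 1.0). Of 5 leaf markers 5 lay above the valley, among them RBCS1A at 1562 and 1585 in the transgenic line and 1597 and 1601 in the wild type. Of 5 seed markers 0 lay above it. Of 5 root markers 1 did by its mean, CASP1, at 11.1 and 28.9 in the transgenic line and 9.31 and 23.1 in the wild type. In both genotypes the replicate 1 array of CASP1 lay under the valley and the replicate 2 array above it.

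Arrays with the same replicate number in the 2 genotypes are called set 1 and set 2, which reads the design text, with its sets that hold both genotypes, as saying that equal numbers belong together. Arrays resembled each other more by set than by genotype, so each gene is given below by array and then within each set. A genotype difference is the mean log2 value of the 35S::JMJ30-HA arrays less that of the wild-type arrays.

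The photoreceptor genes differed little between the genotypes. Their log2 differences lay between -0.14 (PHYC) and 0.22 (PHYD), which is 0.909-fold to 1.16-fold, and 5 were higher and 5 lower in the transgenic line. Limma called 0 of the 10 at an adjusted p under 0.05 and found 0 at an unadjusted p under 0.05. The background for these counts was 0% of all genes called, with 974 genes (2.99%) at an unadjusted p under 0.05. Among genes above the valley, where all 10 receptors lay, 79 (0.444%) had an unadjusted p under 0.05. With the replicate block, a fit that also takes the set as a term, the calls were again 0 of 10, against 0% of all genes. An exact permutation test on 2 against 2 arrays cannot go below a two-sided p of 0.333.

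**Figure D1:**
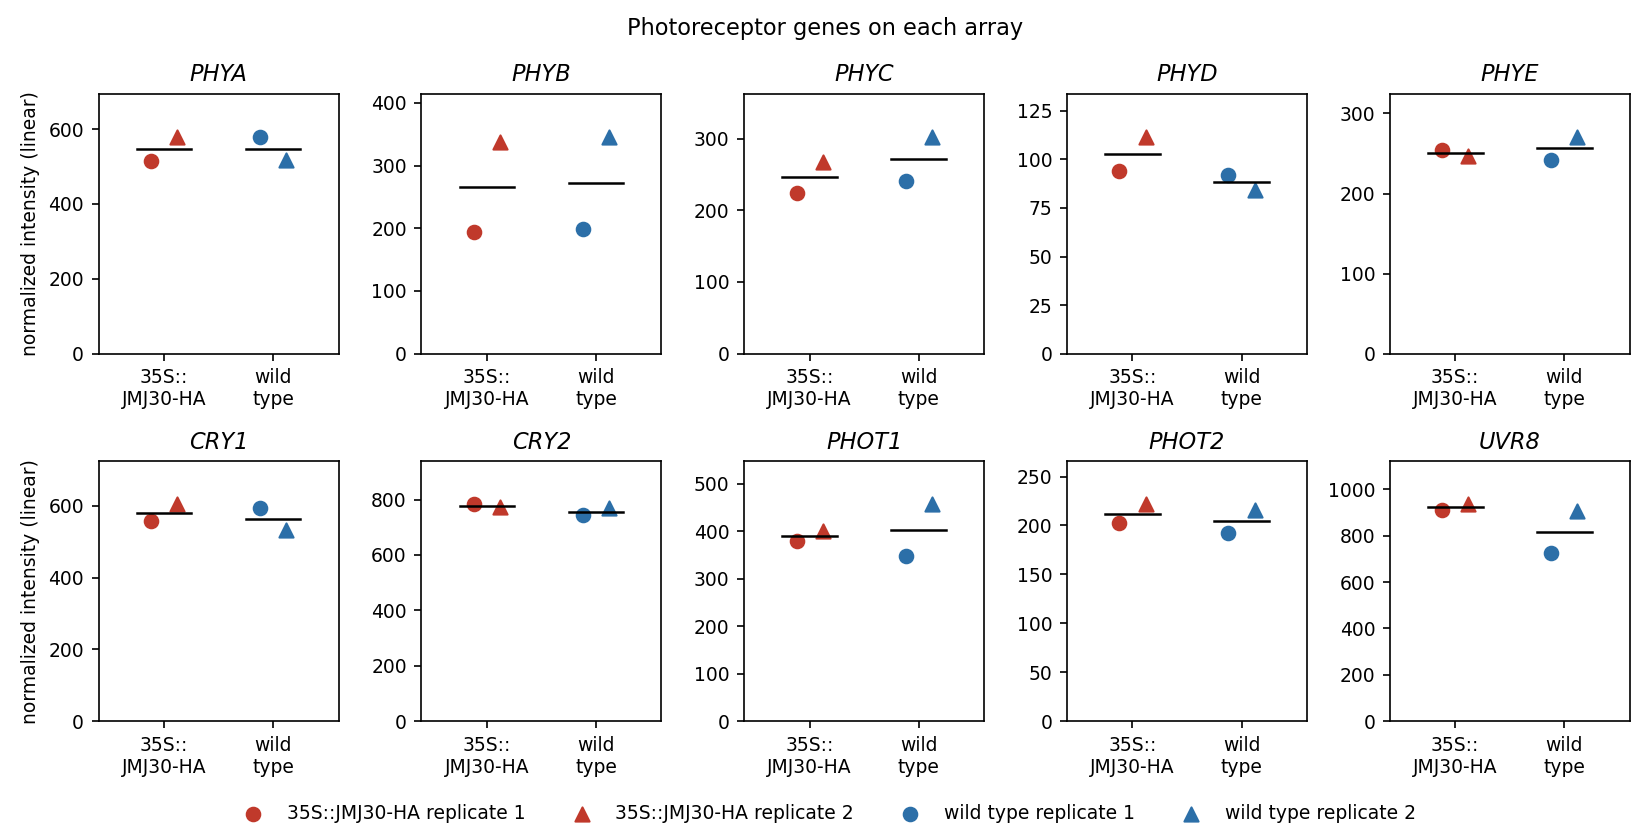
Normalized intensity (linear scale, from 0) of the 10 photoreceptor genes on each array, with the 35S::JMJ30-HA line in red on the left and the wild type in blue on the right. Circles are replicate 1, triangles replicate 2 and black bars the mean of 2 arrays. PHYB splits by replicate, at 194 and 337 in the transgenic line and 199 and 346 in the wild type, while the genotype means are 265 and 272.

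PHYA (AT1G09570), the receptor of continuous far-red light, which is broken down in the light, read 514 and 579 in the 35S::JMJ30-HA line, against 578 and 517 in the wild type. The means were 546 ± 46.3 and 547 ± 43.0 (SD, n = 2 each), and the genotypes overlapped. The sets pointed in opposite directions, set 1 at -0.17 and set 2 at 0.16 on the log2 scale.

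PHYB (AT2G18790), the main red-light receptor of light-grown plants, read 194 and 337 in the transgenic line and 199 and 346 in the wild type. In each genotype replicate 1 was the low array and replicate 2 the high one. The means of 265 ± 101 and 272 ± 104 (SD, n = 2 each) therefore have wide errors, although the genotypes read alike within a set. The log2 difference was -0.036 in set 1 and -0.038 in set 2. Its 95% interval before adjustment ran from -1.05 to 0.97, and from -0.47 to 0.39 with the replicate block.

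PHYD (AT4G16250), a close relative of PHYB with a partly overlapping role in shade responses, read 94.1 and 112 in the transgenic line, against 91.9 and 84.4 in the wild type. The genotypes did not overlap, with the transgenic arrays on top. The log2 difference of 0.22 ± 0.20 (SE) came mostly from set 2, at 0.40, with 0.034 in set 1, and did not pass limma's test (adjusted p = 1.0, and 0.969 with the replicate block). The labels and the values give no probe sequences, and whether probes of PHYB and PHYD read both transcripts was not tested.

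PHYC (AT5G35840), which is stable mainly as a partner of other phytochromes, read 225 and 268 in the transgenic line and 241 and 302 in the wild type. It was the member with the lowest difference, -0.14 ± 0.22 (SE) on the log2 scale, below 0 in both sets (-0.10 and -0.18), with overlapping genotypes. PHYE (AT4G18130), which acts beside PHYB and PHYD in shade responses, read 254 and 247 in the transgenic line and 242 and 271 in the wild type. Its transgenic arrays lay between the wild-type ones, and its log2 difference was 0.072 in set 1 and -0.13 in set 2.

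CRY1 (AT4G08920), the cryptochrome of seedling growth in strong blue light, read 557 and 605 in the 35S::JMJ30-HA line, against 595 and 533 in the wild type. The genotypes overlapped and the sets differed in sign, at -0.095 and 0.18.

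CRY2 (AT1G04400), whose protein is degraded in blue light and which promotes flowering in long days, had 2 transcript models on the array, and they went different ways. Model 2, the brighter one, read 783 and 772 in the transgenic line, against 743 and 768 in the wild type. Model 1 read 755 and 683 in the transgenic line, against 816 and 771 in the wild type. In model 2 both transgenic arrays were above both wild-type arrays, and in model 1 both were below. The log2 differences were 0.041 ± 0.18 (SE) for model 2 and -0.14 ± 0.19 (SE) for model 1, neither past limma's test (adjusted p = 1.0 for both). On the chosen model CRY2 was the steadiest member, with the highest array 1.05 times the lowest.

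PHOT1 (AT3G45780), the main receptor of phototropism in weak blue light, read 379 and 401 in the transgenic line, against 347 and 457 in the wild type. Both transgenic arrays lay within the wild-type range, and the log2 difference was 0.13 in set 1 and -0.19 in set 2. PHOT2 (AT5G58140), which moves chloroplasts away from strong light, read 202 and 222 in the transgenic line and 193 and 216 in the wild type on model 1. The dimmer model 4 of PHOT2 read 31.5 and 40.9 in the transgenic line and 38.2 and 43.3 in the wild type. The log2 differences of these models were 0.053 and -0.18, with overlapping genotypes in both.

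UVR8 (AT5G63860), the UV-B receptor, read 910.4 and 935 in the 35S::JMJ30-HA line, against 726 and 908 in the wild type. The genotypes did not overlap, with the transgenic line higher, but 1 array, wild-type replicate 1, stood below the other 3. On the log2 scale UVR8 differed by 0.18 ± 0.21 (SE), with 0.33 from set 1 and 0.043 from set 2, and did not pass limma's test (adjusted p = 1.0). Without wild-type replicate 1 it was 0.023.

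In 3 of the 10 genes (PHYD, CRY2 and UVR8) both transgenic arrays were above both wild-type arrays, and in 0 of 10 both were below. With model 1 of CRY2 in place of model 2, a choice added after seeing the data, the counts would be 2 above and 1 below. Among the 17790 genes whose mean lay above the valley the shares were 10.2% above and 10.4% below. In 6 of the 10 the difference had the same sign in both sets, against 49.3% of the genes above the valley. With the replicate block the 95% intervals before adjustment ran, over the 10 genes, from -0.57 (the lower end for PHYC) to 0.70 (the upper end for PHYD). With 2 arrays per genotype, true differences anywhere inside a gene's interval remained possible.

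**Figure D2:**
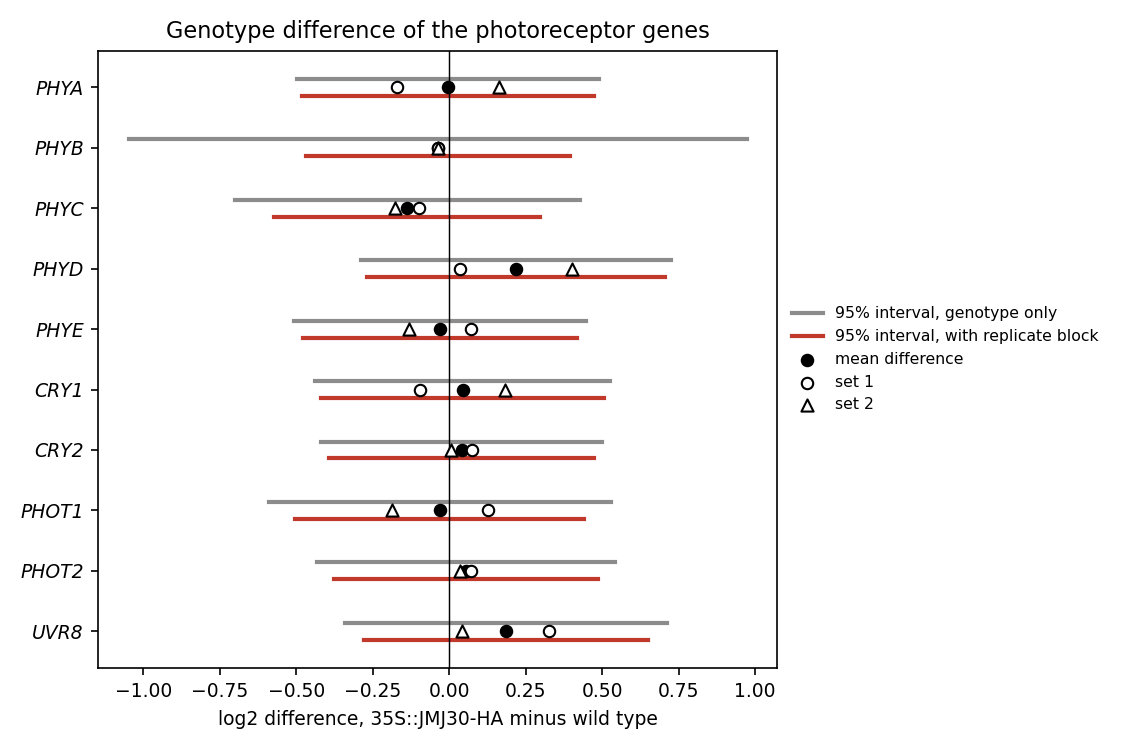
Log2 difference of each photoreceptor gene, 35S::JMJ30-HA minus wild type. Filled circles are the mean difference, open circles set 1, open triangles set 2, grey bars the 95% interval of the fit on genotype and red bars that of the fit with the replicate block. Every interval crosses 0. The PHYB interval spans -1.05 to 0.97 without the block and -0.47 to 0.39 with it.

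Between the sets the receptors differed more than between the genotypes, with a median absolute log2 difference of 0.11 against 0.042. The same medians over genes above the valley were 0.19 and 0.097. PHYB had the largest difference of the 10. PHYB averaged 341 in set 2 and 196 in set 1, a 1.74-fold difference, or 0.80 ± 0.16 (SE) on the log2 scale with a 95% interval from 0.37 to 1.23. The difference was 0.80 within the transgenic line and 0.80 within the wild type. Each set holds a single array of each genotype, so the SE and interval are drawn mostly from other genes. They are not a measured spread of PHYB between replicated sets. PHOT2 and CRY2 had an SE of 0.16 between the sets too. In the fit with both terms it did not pass limma's test over all genes (adjusted p = 0.183), where 4 genes (0.0123%) were called. The labels do not say what the plants or arrays of a set had in common, and a cause was not tested. Among genes above the valley 5.48% differed between the sets by at least as much in either direction.

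The call on PHYB depended on the settings of the fit, and the limma p-values rest on a spread borrowed from other genes. It was called with log2(value + 16) (adjusted p = 0.0120), where limma called 5.66% of all genes. It was called when the test was limited to genes above the valley (adjusted p = 0.0148), with 10.3% of those genes called, and by limma with trend and robust settings (adjusted p = 2.00e-09), with 10.9% of all genes called. The other 9 receptors were not called under these settings. PHYB was not called with quantile normalization (limma adjusted p = 0.191) or the mean of models (limma adjusted p = 0.193). An ordinary linear model did not call it either (adjusted p = 0.607).

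The other phytochromes did not share the size of the PHYB difference, although differences between members were not tested. PHYC averaged 285 in set 2 and 233 in set 1, with log2 differences of 0.25 within the transgenic line and 0.33 within the wild type. PHYA, PHYD and PHYE had mean log2 differences between the sets of 0.0064, 0.062 and 0.060, and each differed in sign between the genotypes. Among the blue-light receptors PHOT1 averaged 429 in set 2 and 363 in set 1 and PHOT2 averaged 219 and 197, higher in set 2 in both genotypes. CRY1 and CRY2 had log2 differences of -0.021 and 0.013. UVR8 averaged 922 in set 2 and 818 in set 1, a difference of 0.32 within the wild type and 0.039 within the transgenic line.

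Over the 10 receptors 9 read higher in set 2 on average and 1 lower, with a median log2 difference of 0.11, against 0.013 for genes above the valley. Of those genes 9280 of 17790 read higher in set 2. PHYA, PHYD, PHYE and CRY2, counted among the 9, read higher in only 1 of the genotypes. Model 1 of CRY2 read lower in set 2 (-0.11). In 4 of 10 (PHYB, PHYC, PHOT1 and PHOT2) both arrays of set 2 were above both of set 1, and in 0 of 10 both were below. The shares among genes above the valley were 30.8% and 27.1%. JMJ30 itself read lower in set 2, at 0.741 times its level in set 1.

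**Figure D3:**
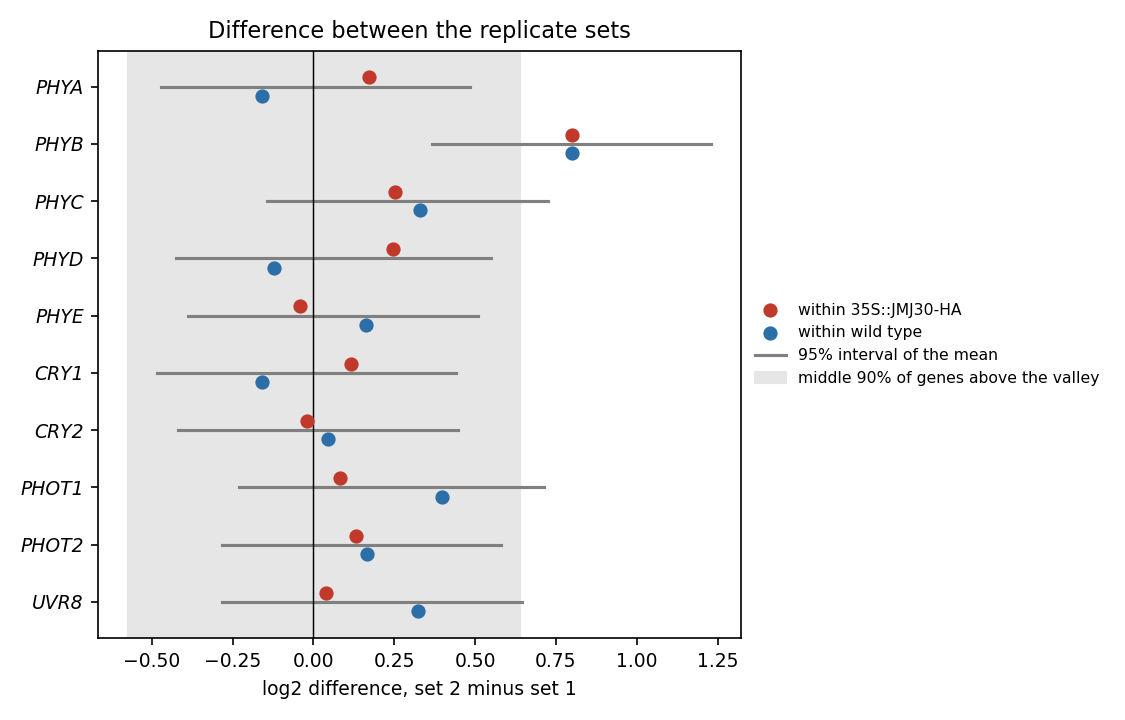
Log2 difference between the replicate sets, set 2 minus set 1, for each photoreceptor gene, within the 35S::JMJ30-HA line (red) and within the wild type (blue). Grey bars are the 95% interval of the mean difference over both genotypes. The shaded band holds the middle 90% of genes above the valley by that mean difference, from -0.57 to 0.64. It is not the range for differences within 1 genotype. PHYB lies outside the band at 0.80 in both genotypes, and the other 9 genes lie inside it.

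The genes whose pattern over the 4 arrays came closest to that of PHYB were sought among 17789 other genes above the valley, by Euclidean distance between log2 values centred on the gene's mean. The nearest were AT1G65346 (distance 0.014), AT5G57345 (0.038) and NAC089 (AT5G22290, 0.043), a NAC-domain transcription factor gene. AT5G57345 read 204 and 368 in the transgenic line, against 216 and 374 in the wild type. Within a distance of 0.25 there were 351 genes, so 4 arrays single out few genes by pattern. The nearest receptor was PHYC, at 0.52.

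Genes linked to the receptors were read from 7 lists of 68 genes in all, of which 58 lay above the valley. Beside signalling and output genes, the lists hold chromophore synthesis genes, other flavin photoreceptors and photolyases. Limma called 0 of the 68 between the genotypes, and 2 (2.94%) had an unadjusted p under 0.05, the share among all genes being 2.99%. With the replicate block the calls were again 0 of 68, with 3 (4.41%) at an unadjusted p under 0.05, beside 6.01% of all genes. Among the 58 above the valley these unadjusted counts were 2 (3.45%) without the block and 3 (5.17%) with it. The shares over all genes above the valley were lower, at 0.444% and 1.45%. In the transgenic line 25 of the 68 read higher and 43 lower, with a median log2 difference of -0.046, beside -0.0039 over all genes. The transgenic pair of arrays lay wholly above the wild-type pair in 2 of the 68 genes and wholly below it in 7, that is 2.94% and 10.3%, beside 12.7% and 13.3% of all genes.

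The 2 genes with an unadjusted p under 0.05 were auxin-inducible members of the Aux/IAA family whose transcripts rise with PIF activity. Their share was no higher than that among all genes. Both lay above the valley, where the share was 3.45% of the list genes, beside 0.444% of genes. The lists were chosen with earlier results known, and that excess was not tested. IAA19 (AT3G15540) read 28.0 and 30.1 in the 35S::JMJ30-HA line, against 41.0 and 39.7 in the wild type. Both transgenic arrays were below both wild-type arrays, with a log2 difference of -0.48 ± 0.18 (SE), -0.55 in set 1 and -0.40 in set 2. IAA29 (AT4G32280) read 29.6 and 36.2 in the transgenic line and 66.3 and 56.4 in the wild type, again without overlap. Neither passed limma's test (adjusted p = 1.0 for both, and 0.825 with the replicate block). PORA was the gene that joined them at an unadjusted p under 0.05 with the replicate block. It read 14.1 and 28.7 in the transgenic line and 19.3 and 40.8 in the wild type, with overlap. Its log2 difference was -0.45 in set 1 and -0.51 in set 2, and it was not called either (limma adjusted p = 0.825 with the block). Of the 18 light output genes, the list that holds IAA19, IAA29 and PORA, 7 read higher and 11 lower (median -0.051).

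Among 18 phytochrome signalling genes 7 read higher and 11 lower (median -0.030). PIF7, a growth-promoting bHLH factor, read 54.8 and 84.0 in the transgenic line and 117 and 75.1 in the wild type, opposite in the sets. LRB2, a ubiquitin ligase subunit in phyB turnover, read 382 and 345 in the transgenic line and 452 and 389 in the wild type. Of 5 chromophore synthesis genes 1 read higher and 4 lower (median -0.14). HY2, the enzyme of the last step to the phytochrome chromophore, read 81.0 and 86.9 in the transgenic line and 74.9 and 76.1 in the wild type. HY1, the heme oxygenase of an earlier step, read 364 and 394 in the transgenic line and 459 and 382 in the wild type. The genotypes overlapped for PIF7 and HY1 and did not for LRB2 and HY2.

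Of the 12 genes of the COP1, SPA and HY5 module 5 read higher and 7 lower (median -0.044). BBX21, a B-box factor that promotes HY5 expression, read 67.3 and 70.1 in the transgenic line, against 98.0 and 80.6 in the wild type, without overlap. BBX22 read 208 and 242 in the transgenic line and 235 and 287 in the wild type, with overlap. Of 3 cryptochrome and UVR8 partners 2 read higher and 1 lower (median 0.057). CIB1, a bHLH factor that binds cry2, read 121 and 78.3 in the transgenic line and 81.9 and 93.0 in the wild type, with the transgenic arrays on either side of the wild type. RUP1, a repressor of UVR8, read 20.8 and 21.1 in the transgenic line and 25.8 and 20.1 in the wild type.

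Of 6 phototropin signalling genes 1 read higher and 5 lower (median -0.061). ABCB19, an auxin transporter that phot1 phosphorylates, read 462 and 505 in the transgenic line and 491 and 546 in the wild type. BLUS1, a guard-cell kinase under the phototropins, read 123 and 107 in the transgenic line and 139 and 109 in the wild type. Both pairs of genotypes overlapped. Of 6 other flavin photoreceptors and photolyases 2 read higher and 4 lower (median -0.12), with FKF1, a blue-light receptor of day-length sensing, at 335 and 426 in the transgenic line and 384 and 578 in the wild type. UVR3, a photolyase, read 269 and 241 in the transgenic line and 334 and 244 in the wild type. Neither FKF1 nor UVR3 passed limma's test (adjusted p = 1.0 for both).

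Between the sets the same lists spread more widely than between the genotypes, with an SD of the log2 difference over the 68 genes of 0.50 between the sets and 0.21 between the genotypes. In the fit with both terms limma called 0 of the 68, and 15 (22.1%) had an unadjusted p under 0.05, beside 15.5% of all genes. Of the 68 genes 45 read higher in set 2 and 23 lower, beside 16718 and 15909 of all genes. Both arrays of set 2 lay above both of set 1 in 28 of the 58 genes above the valley (48.3%), and below them in 9 (15.5%), beside the 30.8% and 27.1% of all genes above the valley. With log2(value + 16) 13 of the 68 were called, beside 5.66% of all genes. With the test limited to genes above the valley 13 of 58 were called, beside 10.3%, and with trend and robust settings 16 of 68, beside 10.9% of all genes. The shares of all genes are not matched to the lists in intensity. Of all 32627 genes 17790 lay above the valley, and of the 68 list genes 58 did.

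HFR1 (AT1G02340), a bHLH protein that holds back shade growth, had the largest difference of the 68, at 75.0 (transgenic) and 70.1 (wild type) in set 2, against 13.0 and 19.6 in set 1. TZP (AT5G43630), a nuclear protein found with phyB, read 164 and 157 in set 2 and 43.1 and 53.8 in set 1, in the same order. Their log2 differences were 2.18 ± 0.23 (SE) and 1.73 ± 0.19 (SE), with limma adjusted p = 0.0866 and 0.0881. The phytochrome signalling list as a whole split 9 and 9 between the sets (median -0.0038).

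The COP1, SPA and HY5 module read higher in set 2 for 10 of 12 genes (median 0.32). SPA1, a partner of COP1, read 238 in the transgenic line and 237 in the wild type in set 2, against 140.2 and 118 in set 1. HYH, a relative of HY5, read 25.1 and 32.6 in set 2 and 15.6 and 13.1 in set 1. Both were higher in set 2 in each genotype, with limma adjusted p = 0.172 and 0.190. For HYH the wild-type array of set 1 lay under the valley. In the phototropin list, which split 3 and 3 (median 0.0054), NPH3 and RPT2, related adaptor proteins of phototropism, had log2 differences of 0.55 and 0.31.

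Of the light output genes 14 of 18 read higher in set 2 (median 0.11). SIG5, a plastid sigma factor gene that responds to blue light, read 89.9 and 90.1 in set 2, against 38.1 and 37.7 in set 1, and like PHYB it differed by nearly the same amount in each genotype (1.24 and 1.26). PORA, an enzyme of chlorophyll synthesis, had a log2 difference of 1.05, and its transgenic array in set 1 lay just under the valley. The limma adjusted p was 0.122 for SIG5 and 0.143 for PORA. The other flavin photoreceptors and photolyases read higher in set 2 for 5 of 6 (median 0.30), with PHR1, a photolyase, at 0.66 and FKF1 at 0.47. Chromophore synthesis genes read higher for 3 of 5 (median 0.011), with HY1 at -0.075 and HY2 at 0.061. Of the cryptochrome and UVR8 partners 1 of 3 read higher (median -0.17), with RUP2, a repressor of UVR8, at 0.22 and CIB1 at -0.23. RUP2 read 12.6 to 17.0 over the arrays, near the valley.

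**Figure D4:**
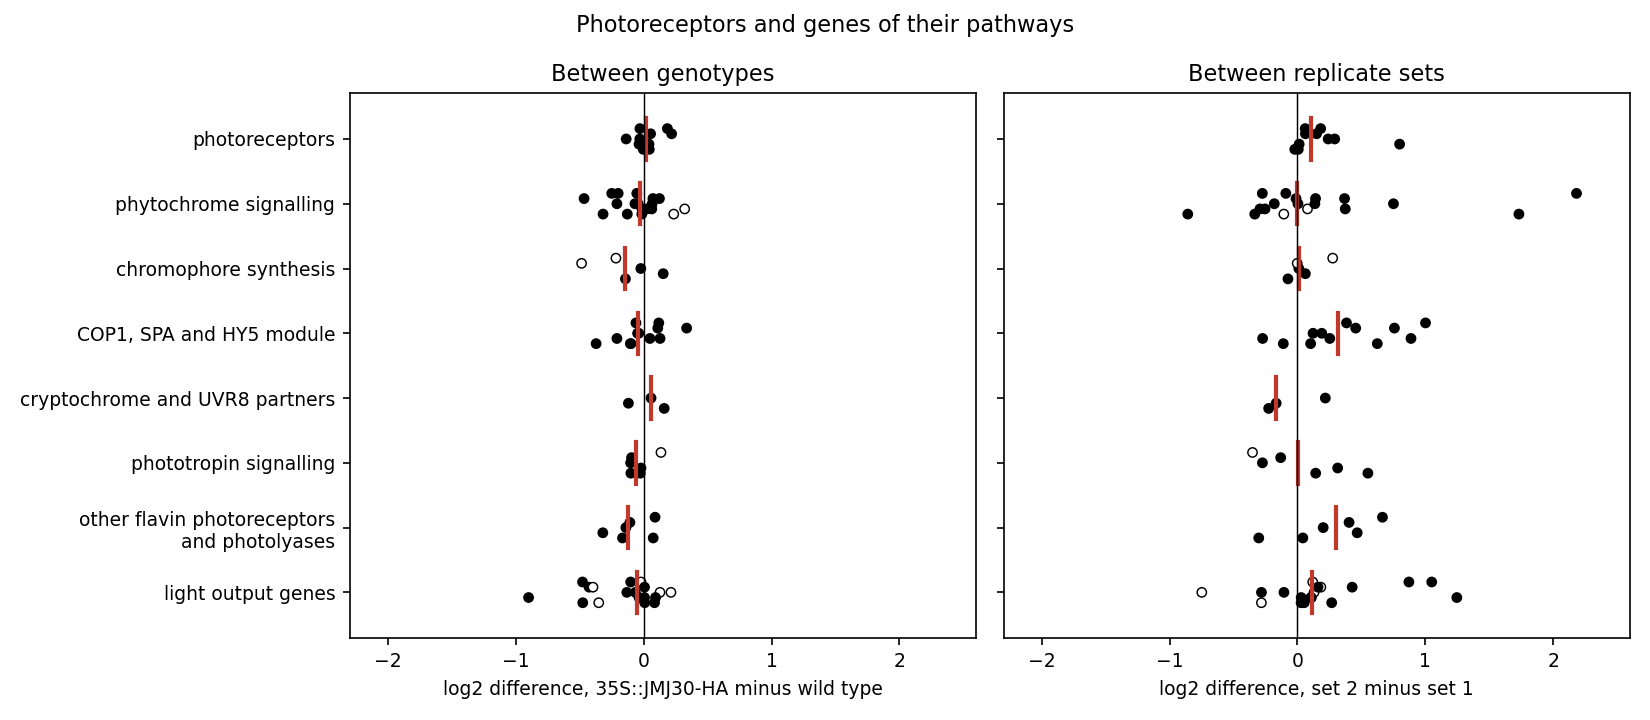
Log2 differences of the photoreceptor genes and of the 7 lists of pathway genes, between genotypes (35S::JMJ30-HA minus wild type, left) and between replicate sets (set 2 minus set 1, right). Each point is a gene, filled where its mean lies above the valley and open where it is near background, and red bars are list medians. Points spread more widely on the right, where HFR1 reaches 2.18, while IAA29, at -0.90, is the lowest point on the left.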

How the data were processed

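The deposited intensity values came from NimbleGen arrays labelled with Cy3 and were normalized by the authors with RMA, per the submitters' processing notes, without a version or settings. They reach 4400 and none is at or below 0, so they were read as linear intensity and converted to log2 here without a pseudocount. For genes with several transcript models (3602 of 32627) the model with the highest mean stood for the gene. Symbols came from the NCBI table of assembly TAIR10.1 (98.1% of locus codes found). The files name no build, so no coordinates are given.

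The genotype comparison used moderated linear models on log2 values (limma 3.58.1, run in R 4.3.3; two-sided), with p-values adjusted by Benjamini-Hochberg across 32627 genes and called under 0.05. Sets were compared in the fit with genotype and replicate number as terms. With so few arrays the SE of a gene in that fit is drawn mostly from all genes. It is not a measured spread between replicated sets. Plots were drawn with matplotlib 3.10.9. The labels call the arrays biological replicates. The pairing is a reading of the design text, which does not state that equal numbers share a set or what a set shared. Deviations from genotype means correlated at 0.42 over all genes and 0.68 above the valley. The number of arrays limits precision.

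The members and lists were chosen with earlier results of these data known. An entry was used if the table gave its symbol for its locus (93 of 97, without PCH1, BIC1, BIC2 and NCH1). Named were the 10 receptors with every model, JMJ30, in each list the 2 genes above the valley with the largest moderated t by genotype and by set, and the 3 genes nearest in pattern to the receptor of widest range. Marker genes beside these were named to check the tissue.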

Additional observations from a re-analysis of the deposited data

How the results depend on the processing

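The count of receptors called between genotypes was 0 with the replicate block, with the block limited to genes above the valley (a setting added after seeing the data), with the mean of models, log2(value + 16), quantile normalization, genes above the valley, trend and robust settings and an ordinary linear model, and 0 to 0 without each array in turn. The replicate block changed no call. The median genotype difference of the receptors was 0.019, moved to -0.030 with the mean of models, and ran from -0.014 to 0.10 without each array in turn. The mean of models turned the genotype difference of CRY2 to -0.051 and of PHOT2 to -0.064, and the set difference of CRY2 to -0.050, since their models disagree. Without single arrays, which leaves a set with 1 genotype, the genotype difference ran from -0.090 to 0.083 for PHYA, -0.44 to 0.36 for PHYB, -0.30 to 0.027 for PHYC, -0.11 to 0.051 for PHYE, -0.037 to 0.12 for CRY1, -0.23 to 0.17 for PHOT1 and -0.030 to 0.14 for PHOT2, changing sign in each. PHYD (0.095 to 0.34), CRY2 (0.017 to 0.064) and UVR8 (0.023 to 0.35) kept their sign. That was fixed in advance, since both transgenic arrays of these genes lay above both wild-type arrays. Between sets the count was 0, and 1 (PHYB) with log2(value + 16), with genes above the valley and with trend and robust settings. The cause was not tested. The median set difference was 0.11 and ran from 0.12 to 0.16 without single arrays, a value from 1 genotype with no test. Arrays limit what can be seen: a receptor difference inside the intervals given for each gene could not be resolved.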
